A study of Homo sapiens with 12 samples.

Results

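Aminoacyl-tRNA synthetases are the enzymes that load each tRNA with its amino acid. The 36 genes described here are 20 that encode the cytosolic enzymes or their subunits and 16 that encode the mitochondrial enzymes, split by whether the gene symbol ends in 2. A gene was read on array probe sets annotated to exactly 1 symbol, and where it had several, on the one with the highest mean over the 12 arrays. This gave values for 33 of the 36 genes, 18 cytosolic and 15 mitochondrial, among 19775 genes on the arrays. MARS1, QARS1 and TARS2 lie only on probe sets that also carry the symbol of a microRNA gene, and their levels were not analysed here.

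The cells were HK-2, a human proximal tubular line of the kidney that has been immortalised, grown in defined medium supplemented with insulin, transferrin, selenite, hydrocortisone and epidermal growth factor. Near confluence they received the compound labelled CdCl or the control vehicle, and RNA was taken after 12 h or 48 h. The 4 groups were CdCl at 48 h, control at 48 h, CdCl at 12 h and control at 12 h, with 3 biological replicates each and 1 Affymetrix array per replicate. All groups share 1 immortalised line, the control groups had the vehicle of the compound, and a dose was not given in the sources used here. The study asked for expression signatures of kidney toxicity.

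Each synthetase recognises a particular amino acid and its tRNAs and spends ATP to join them, so that the ribosome receives charged tRNA. Most amino acids have separate nuclear genes for the cytosolic and the mitochondrial enzyme, while GARS1 and KARS1 each serve both compartments and EPRS1 joins glutamyl and prolyl activity in 1 protein. Many cytosolic synthetase genes are known targets of ATF4, the transcription factor made when phosphorylation of eIF2alpha slows general translation, as happens when amino acids run short, and uncharged tRNA is itself the signal for the kinase GCN2 (EIF2AK4).

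Values are log2 signals, so 1 unit is a doubling, and a level on a given probe set cannot be set against that on another. Replicates of a group correlated at 0.9965 to 0.9982 over all probe sets except the Affymetrix controls. The epithelial genes PAX8, KRT8, KRT18, CDH6 and CDH16 were above 4 on all 12 arrays. Their means differed between CdCl and control cells, most widely for the cadherin genes at 48 h. CDH16 averaged 5.13 in CdCl and 8.21 in control cells at 48 h and 6.71 and 7.83 at 12 h. CDH6 averaged 8.63 and 10.87 at 48 h and 11.84 and 12.40 at 12 h. KRT8 averaged 10.53 and 10.55 at 48 h and 10.60 and 11.19 at 12 h. PAX8 averaged 9.68 and 9.36 at 48 h and 9.48 and 9.55 at 12 h, and KRT18 12.01 and 12.22 and 11.62 and 11.70. Of the defining markers of a mature proximal tubule, GGT1, ANPEP, CUBN, LRP2, SLC34A1 and AQP1 were under 4 on every array, as was the renal epithelial gene PAX2. Of 8 markers of other kidney cell types, NPHS1, PECAM1, CDH5, PTPRC and PDGFRB were under 4 on all arrays, SLC12A1 was above it on 1, AQP2 lay between 4.09 and 4.56, and the fibroblast-associated DCN averaged 11.78 and 11.72 in CdCl and control cells at 12 h and 11.04 and 10.67 at 48 h. Spiked-in poly-A control RNAs averaged 6.51 ± 0.03 in CdCl and 6.09 ± 0.11 in control arrays at 12 h, and 5.90 ± 0.44 and 5.74 ± 0.09 at 48 h (SD, n = 3). The actin 3' minus 5' signal, a sign of RNA quality, was 1.69 to 1.80 in CdCl and 1.71 to 2.11 in control arrays at 12 h, and 1.40 to 1.82 and 1.36 to 1.57 at 48 h. The part of these markers and controls in the results below was not tested.

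After 12 h of CdCl, most calls among the cytosolic genes were upward and most among the mitochondrial genes downward. Of 18 cytosolic genes, 6 were higher than in control cells and 1 was lower, and of 15 mitochondrial genes 1 was higher and 8 were lower. A call is an adjusted p under 0.05 in a limma fit of all 10683 genes tested, Benjamini-Hochberg adjusted over them. Among all genes tested, 16.7% were called higher and 39.7% lower, 56.4% in either direction. Called higher and lower were 33.3% and 5.56% of the cytosolic genes, and 6.67% and 53.3% of the mitochondrial genes. The median change was 0.02 for the cytosolic genes, -0.26 for the mitochondrial genes and -0.16 for all genes tested, and the difference between the classes was not tested as such. The RNA came from whole cultures, so fewer cells with a transcript and less of it per cell cannot be told apart.

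**Figure D1:**
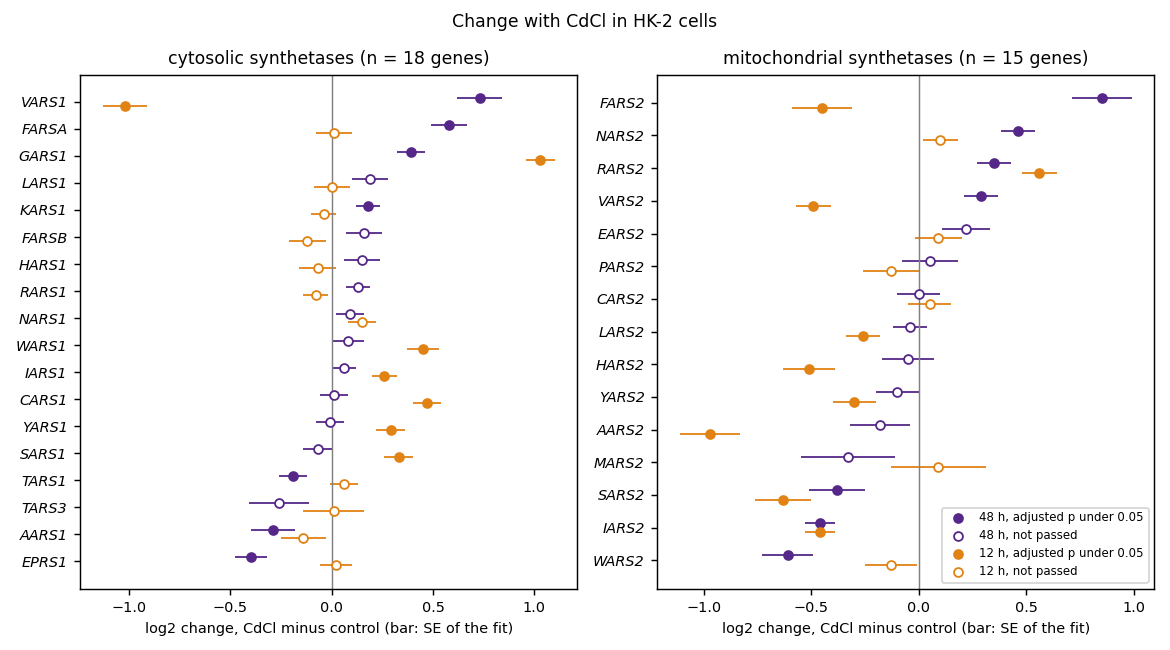
Change with CdCl, as log2 signal in CdCl minus control cells with the SE of the fit, for the 18 cytosolic and 15 mitochondrial genes at 48 h and 12 h. Filled points passed the adjusted p of 0.05 and open points did not. GARS1 has the highest 12 h point at 1.03 and VARS1 the lowest at -1.02, and VARS1 and FARS2 lie on opposite sides of 0 at the different times.

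GARS1, the glycyl-tRNA synthetase of both compartments, read 11.89, 11.89 and 12.08 in CdCl cells at 12 h, against 10.87, 11.02 and 10.87 in control cells. All 3 CdCl arrays lay well above the controls, a 2.04-fold difference and the largest rise of any synthetase at this time on the probe sets used (log2 change 1.03 ± 0.07, SE of the fit, limma adjusted p = 4.6e-07). The other 5 cytosolic rises were smaller. CARS1 rose by 0.47 ± 0.07 for cysteine, WARS1 by 0.45 ± 0.08 for tryptophan, SARS1 by 0.33 ± 0.07 for serine, YARS1 by 0.29 ± 0.07 for tyrosine and IARS1 by 0.26 ± 0.06 for isoleucine. For GARS1 and each of these 5 genes every CdCl array was above every control array, and a non-overlap in that direction was seen in 7 of the 18 cytosolic genes and in 19.8% of all genes tested. The seventh was NARS1, for asparagine, whose change of 0.15 ± 0.07 did not pass (adjusted p = 0.084). Dimmer probe sets of CARS1 and SARS1 changed by 2.05 and 1.57, and dimmer ones of LARS1 and EPRS1, which were not called on the probe sets used (0.00 and 0.02), by 1.56 and 0.92. With the probe set of largest SD in the fit, all 4 changes passed (limma adjusted p of 5.32e-05 to 0.00251). Those probe sets were chosen by their spread over the same 12 arrays, which favours large changes. The adjusted p does not allow for that choice. The remaining probe sets that passed the filter changed by 0.42 for CARS1, by 0.14 and 0.13 for LARS1 and by -0.28 for EPRS1.

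VARS1, which charges valine tRNA, was the only cytosolic gene called lower. It read 6.75, 6.85 and 6.56 in CdCl cells at 12 h, against 7.82, 7.81 and 7.59 in control cells. The groups were separated by a wide gap, with CdCl cells 2.03-fold lower (-1.02 ± 0.11, limma adjusted p = 1.55e-05). The other VARS1 probe set, at a mean of 4.76 in CdCl and 4.73 in control cells, showed a change of 0.03 instead. Non-overlap downwards was seen in 3 of 18 cytosolic genes, against 46.6% of all genes tested.

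The mitochondrial calls at 12 h were led by AARS2, for alanine, and SARS2, for serine. AARS2 read 5.96, 6.04 and 5.72 in CdCl cells and 6.88, 6.96 and 6.80 in control cells. All CdCl arrays were below all controls, 1.96-fold lower on average (-0.97 ± 0.14, limma adjusted p = 0.000123), but the other AARS2 probe set changed by only -0.05. SARS2 was a dim gene, at 3.94, 4.04 and 4.12 in CdCl cells and 4.85, 4.45 and 4.69 in control cells. Its groups did not overlap either (-0.63 ± 0.13, limma adjusted p = 0.00186).

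HARS2, for histidine, read 7.37, 7.39 and 7.03 in CdCl cells at 12 h and 7.79, 7.82 and 7.71 in control cells, again without overlap (-0.51 ± 0.12, limma adjusted p = 0.00368). VARS2 changed by -0.49 ± 0.08, IARS2 by -0.46 ± 0.07 and FARS2, the phenylalanine enzyme, by -0.45 ± 0.14. The smallest falls that passed were those of YARS2 (-0.30 ± 0.10) and LARS2 (-0.26 ± 0.08). The falls of FARS2, YARS2 and LARS2 did not pass without 1 of certain arrays (CdCl replicate 1 or control replicate 1 for FARS2, CdCl replicate 1 or control replicate 3 for YARS2, CdCl replicate 2 or control replicate 1 for LARS2), with changes of -0.38 to -0.21 and adjusted p of 0.0523 to 0.0847. The fall of LARS2 was also lost with quantile normalisation (-0.22, limma adjusted p = 0.0588). FARS2, YARS2 and LARS2 did not pass either when every array was centred on its median over the genes tested. This put the all-gene median at -0.01 and the share of lower calls at 52%, against 70.4% without it. With that centring, 8 cytosolic genes were higher and 1 lower, and 2 mitochondrial genes were higher and 5 lower. Non-overlap downwards was seen in 9 of 15 mitochondrial genes, against 46.6% of all genes tested.

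RARS2, for arginine, went against the other mitochondrial calls. It read 10.16, 10.13 and 10.25 in CdCl cells at 12 h and 9.66, 9.49 and 9.71 in control cells. Every CdCl array was above every control array (0.56 ± 0.08, limma adjusted p = 0.000103), and the next brightest RARS2 probe set moved the same way, by 0.29. The mitochondrial CARS2, EARS2, MARS2, NARS2, PARS2 and WARS2 did not pass at 12 h, with changes between -0.13 and 0.10. All 3 control arrays of MARS2 were under 4 at 12 h.

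Set beside each other by amino acid, 12 mitochondrial genes have a measured cytosolic partner. At 12 h, on the probe sets used, the change was more positive in the cytosolic gene for 10 of the 12. The exceptions were valine, where the change in VARS1 minus that in VARS2 was -0.53, and arginine, where the change in RARS1 minus that in RARS2 was -0.64. The widest gap in the usual direction was for serine, at 0.96 between SARS1 and SARS2, followed by alanine at 0.83. The valine and alanine orders depend on the probe set. The other VARS1 probe set changed by 0.03, above VARS2 at -0.49. The other AARS2 probe set changed by -0.05, above AARS1 at -0.14. At 48 h the cytosolic change was the more positive in 8 of 12 pairs.

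**Figure D2:**
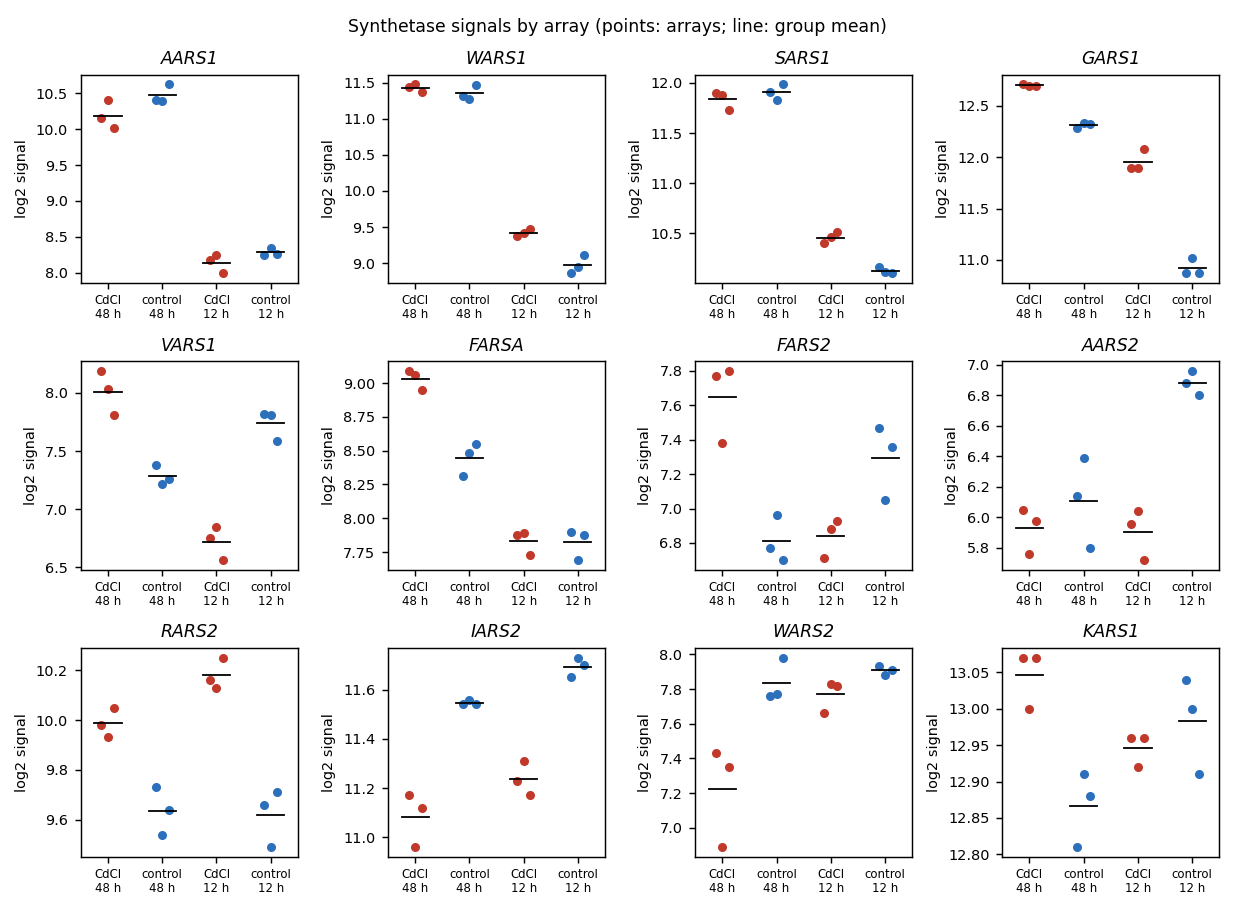
Log2 signal on each array for 12 synthetase genes, with points for arrays and a line for the mean of 3, in CdCl and control cells at 48 h and at 12 h. GARS1 is higher with CdCl at both times, IARS2 is lower at both, and VARS1 and FARS2 change sides.

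At 48 h both classes held calls in both directions. Of 18 cytosolic genes 4 were higher with CdCl and 3 lower, and of 15 mitochondrial genes 4 were higher and 3 lower, while 26.5% of all genes tested were called higher and 28.0% lower (54.6% in either direction). Median changes were 0.09 for the cytosolic genes and -0.04 for the mitochondrial genes, beside -0.0151 for all genes tested. CdCl arrays lay wholly above control arrays for 5 cytosolic and 4 mitochondrial genes (29.1% of all genes tested) and wholly below for 2 and 3 (30.9%).

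VARS1 was the highest of the cytosolic changes at 48 h. Its CdCl arrays read 8.19, 8.03 and 7.81 and its control arrays 7.38, 7.22 and 7.26. The order of the groups was the opposite of that at 12 h, with all CdCl arrays above the controls (0.73 ± 0.11, limma adjusted p = 0.000184), and here the other probe set also moved up, by 0.40. FARSA, the catalytic subunit of the cytosolic phenylalanine enzyme, read 9.09, 9.06 and 8.95 in CdCl cells and 8.31, 8.48 and 8.55 in control cells. It was higher without overlap (0.58 ± 0.09, limma adjusted p = 0.000144, and 0.36 on its other probe set), whereas its partner subunit FARSB changed by 0.16 ± 0.09 and did not pass (adjusted p = 0.15).

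GARS1 was again higher at 48 h, with 12.71, 12.69 and 12.69 in CdCl cells and 12.28, 12.33 and 12.32 in control cells (0.39 ± 0.07, limma adjusted p = 0.000673). The replicates were tight and the groups did not overlap. KARS1, the lysyl enzyme of both compartments, read 13.07, 13.00 and 13.07 in CdCl cells and 12.81, 12.91 and 12.88 in control cells. The groups were separate by a narrow margin (0.18 ± 0.06, limma adjusted p = 0.0252). The call was lost with quantile normalisation (0.11, limma adjusted p = 0.141) and with each array centred on its median (0.16, 0.0715). It was also lost with only the 6 arrays of 48 h (0.0604). Nor did it pass without CdCl replicate 1 or 3 or control replicate 1 of 48 h (adjusted p of 0.0666 to 0.0918). The other KARS1 probe set changed by 0.42. At 12 h KARS1 had changed by -0.04 ± 0.06, with 12.96, 12.92 and 12.96 in CdCl cells and 13.04, 13.00 and 12.91 in control cells.

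The cytosolic genes lower at 48 h were EPRS1, AARS1 and TARS1. EPRS1 read 11.70, 11.41 and 11.54 in CdCl cells and 11.87, 12.04 and 11.96 in control cells, with no overlap (-0.40 ± 0.08, limma adjusted p = 0.00111). Its 2 other probe sets changed by -0.37 and -0.19. AARS1, for alanine, read 10.15, 10.40 and 10.01 in CdCl cells and 10.40, 10.39 and 10.63 in control cells, so the groups overlapped (-0.29 ± 0.11, limma adjusted p = 0.039). TARS1, for threonine, changed by -0.19 ± 0.07 (adjusted p = 0.0447). The AARS1 and TARS1 calls did not pass in a fit of the 6 arrays of 48 h alone (adjusted p = 0.0865 and 0.0541), which leaves 1 cytosolic gene lower. The count was also 1 when a single array was left out, namely CdCl replicate 1 of 12 h, CdCl replicate 3 of 48 h, or control replicate 1 or 3 of 48 h (adjusted p of 0.0502 to 0.152 for AARS1 and 0.0511 to 0.0911 for TARS1). AARS1 did not pass either with dim genes kept in the fit (limma adjusted p = 0.0763) or without CdCl replicate 1 of 48 h (0.097). The TARS1 call was lost in 9 of the 12 fits that left out 1 array, all but those without CdCl replicate 1 of 48 h or control replicate 1 or 3 of 12 h (adjusted p of 0.0511 to 0.129), and its change was -0.07 with its probe sets averaged (adjusted p = 0.557).

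Among the mitochondrial genes FARS2 changed most at 48 h, with 7.77, 7.38 and 7.80 in CdCl cells and 6.77, 6.96 and 6.70 in control cells. All CdCl arrays were above all controls, 1.80-fold higher on average (0.85 ± 0.14, limma adjusted p = 0.000252). At 12 h it had read 6.71, 6.88 and 6.93 in CdCl cells and 7.47, 7.05 and 7.36 in control cells, the opposite order. The other measurable FARS2 probe set changed by 0.20 at 48 h and by -0.44 at 12 h.

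NARS2, for asparagine, read 9.14, 9.27 and 9.25 in CdCl cells at 48 h and 8.79, 8.68 and 8.80 in control cells (0.46 ± 0.08, limma adjusted p = 0.00037). RARS2 was again higher, with 9.98, 9.93 and 10.05 in CdCl cells and 9.73, 9.54 and 9.64 in control cells (0.35 ± 0.08, limma adjusted p = 0.00287). Neither gene's groups overlapped, and VARS2 was also higher, by 0.29 ± 0.08 (adjusted p = 0.0118). The next brightest RARS2 probe set changed by 0.42. The RARS2 call was lost with the probe set of largest SD, a dim one (0.06, limma adjusted p = 0.659).

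The mitochondrial falls at 48 h were in WARS2, for tryptophan, IARS2, for isoleucine, and SARS2. WARS2 read 7.43, 6.89 and 7.35 in CdCl cells and 7.76, 7.77 and 7.98 in control cells. The CdCl arrays were all lower but spread widely (-0.61 ± 0.12, limma adjusted p = 0.00145), and the other measurable probe set changed by -0.38. IARS2 read 11.17, 10.96 and 11.12 in CdCl cells and 11.54, 11.56 and 11.54 in control cells at 48 h, and 11.23, 11.31 and 11.17 against 11.65, 11.73 and 11.70 at 12 h. Its fall was thus of the same size at both times (-0.46 ± 0.07 each), and no overlap was seen at either. SARS2 read 4.22, 3.68 and 3.88 in CdCl cells and 4.23, 4.29 and 4.40 in control cells (-0.38 ± 0.13, limma adjusted p = 0.0322). This call was lost when dim genes were kept in the fit (adjusted p = 0.0776), with a trended prior (0.0631) and with only the 6 arrays of 48 h (0.0597). It was also lost without CdCl replicate 2 or 3 or control replicate 2 or 3 of 48 h (adjusted p of 0.064 to 0.127).

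The difference between the CdCl effects, 48 h minus 12 h, was tested as an interaction in the same fit. Of 18 cytosolic genes 2 had a higher effect at 48 h, FARSA and VARS1, and 6 a lower one, CARS1, EPRS1, GARS1, SARS1, WARS1 and YARS1. Of 15 mitochondrial genes 5 had a higher effect, AARS2, FARS2, HARS2, NARS2 and VARS2, and 0 a lower one in limma (1 at an unadjusted p under 0.05). WARS2, at -0.48 ± 0.18, was closest to a lower call (adjusted p = 0.0501) and passed with quantile normalisation, with a filter at 5, with a trended prior, with centring on the genes tested, and without CdCl replicate 1 or 3 of 48 h. Over all genes tested 27.0% had a higher and 13.0% a lower effect at 48 h (40.1% in either direction), and the median was -0.17 for cytosolic, 0.19 for mitochondrial and 0.129 for all genes. With arrays centred on the genes tested the all-gene median was 0.0016, the share of lower calls 51.1% in place of 32.6%, and the member counts were 2 higher and 8 lower for cytosolic and 3 and 2 for mitochondrial genes.

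The largest interactions on the probe sets used were those of VARS1 and FARS2, which changed sides. VARS1 had an effect of 0.73 at 48 h and -1.02 at 12 h, an interaction of 1.75 ± 0.16 (limma adjusted p = 1.81e-05). FARS2 had 0.85 at 48 h and -0.45 at 12 h, an interaction of 1.30 ± 0.19 (limma adjusted p = 0.000368). VARS2 read 8.94, 9.10 and 8.87 in CdCl cells and 8.63, 8.58 and 8.82 in control cells at 48 h, and 8.39, 8.25 and 8.39 against 8.80, 8.83 and 8.87 at 12 h. It too was above its controls late and below them early (interaction 0.78 ± 0.12, limma adjusted p = 0.000438).

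AARS2 and HARS2 differed in another way. AARS2 read 6.05, 5.76 and 5.98 in CdCl cells at 48 h and 6.14, 6.39 and 5.80 in control cells, so the gap of 12 h was replaced by overlap (-0.18 ± 0.14, adjusted p = 0.309; interaction 0.80 ± 0.20, adjusted p = 0.00816). The other AARS2 probe set changed by -0.05 at 12 h and by 0.17 at 48 h, so it showed little gap at 12 h. HARS2 read 7.81, 7.44 and 7.68 in CdCl cells at 48 h and 7.60, 7.87 and 7.61 in control cells, also overlapping. Its interaction of 0.46 ± 0.17 had an adjusted p = 0.05 at the threshold itself and was lost with most other scalings and most single arrays left out (adjusted p of 0.0519 to 0.112). The interaction of WARS1 (-0.36 ± 0.11) was lost without CdCl replicate 3 of either time, control replicate 1 or 2 of 12 h, or control replicate 3 of 48 h (adjusted p of 0.0551 to 0.0603). That of YARS1 (-0.30 ± 0.10) was lost without CdCl replicate 2 of 12 h or 3 of 48 h, control replicate 1 or 3 of 12 h, or control replicate 2 or 3 of 48 h (adjusted p of 0.0548 to 0.0645). Among the cytosolic genes GARS1 had the most negative interaction, -0.64 ± 0.10 (limma adjusted p = 0.000516).

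Both effects are read against control cells that themselves changed with time. On the probe sets used, the largest changes in the family were among these shifts, in cytosolic genes. The actin 3' minus 5' signal of control cells also differed with time, at 1.36 to 1.57 at 48 h and 1.71 to 2.11 at 12 h without overlap, and its part in these shifts was not tested. In control cells at 48 h, 12 of 18 cytosolic genes were higher than at 12 h and 3 lower (HARS1, RARS1 and VARS1), with a median change of 0.63. The mitochondrial genes had 2 higher, NARS2 and PARS2, and 6 lower, AARS2, CARS2, FARS2, LARS2, SARS2 and YARS2, with a median of -0.15. Of all genes tested 23.4% were called higher and 33.5% lower (56.9% in either direction), with a median of -0.058. The control arrays at 48 h lay wholly above those at 12 h for 12 cytosolic and 3 mitochondrial genes, against 27.4% of all genes tested, and wholly below for 4 and 7, against 37.1%.

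WARS1, the cytosolic tryptophan enzyme and known as an interferon-inducible gene, read 11.31, 11.27 and 11.47 in control cells at 48 h and 8.86, 8.95 and 9.12 at 12 h. This 5.18-fold rise was the largest of any synthetase on the probe sets used (2.37 ± 0.08, limma adjusted p = 1.5e-09). AARS1 read 10.40, 10.39 and 10.63 in control cells at 48 h and 8.25, 8.34 and 8.26 at 12 h, a 4.58-fold rise (2.20 ± 0.11, limma adjusted p = 1.81e-08). SARS1 read 11.91, 11.83 and 11.99 at 48 h and 10.16, 10.11 and 10.10 at 12 h, a 3.45-fold rise (1.78 ± 0.07, limma adjusted p = 3.83e-09). In all of these the arrays of the different times were far apart. CARS1 (1.44 ± 0.07), GARS1 (1.39 ± 0.07), YARS1 (1.34 ± 0.07), IARS1 (1.13 ± 0.06), EPRS1 (0.93 ± 0.08), FARSA and NARS1 (each 0.63), TARS1 (0.47) and LARS1 (0.45) rose less. On its dimmer probe set CARS1 rose by 3.20. VARS1 changed by -0.46 ± 0.11 on the probe set used and by 0.36 on the other, and its lower call was lost when the probe sets were averaged (adjusted p = 0.846).

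On the probe sets used, the falls among mitochondrial genes in control cells were led by LARS2, for leucine (-0.87 ± 0.08), AARS2 (-0.77 ± 0.14) and CARS2, for cysteine (-0.73 ± 0.10). The other AARS2 probe set changed by only -0.17, and the other LARS2 probe set by -0.59. The rises of NARS2 (0.23 ± 0.08) and PARS2, for proline (0.32 ± 0.13), were near the threshold. Without 1 array the count of 2 was between 0 and 2, and it was 0 without control replicate 2 or 3 of 12 h or control replicate 3 of 48 h. The falls of SARS2 (-0.36 ± 0.13) and the cytosolic RARS1 (-0.20 ± 0.06) did not pass without control replicate 1 of either time, and that of SARS2 also without control replicate 3 of 12 h or 2 of 48 h (adjusted p of 0.0518 to 0.141).

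**Figure D3:**
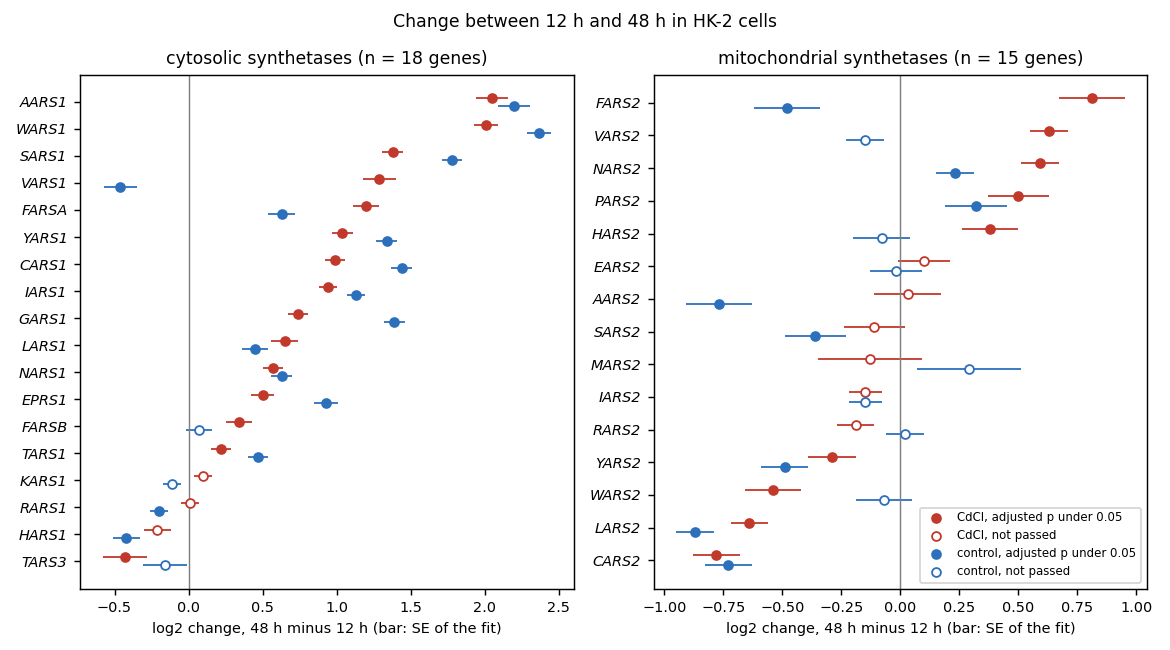
Change with time, as log2 signal at 48 h minus 12 h with the SE of the fit, in CdCl cells and in control cells for the 18 cytosolic and 15 mitochondrial genes. AARS1, WARS1 and SARS1 rose by over 1 unit in both, VARS1 and FARS2 rose in CdCl cells and fell in control cells, and CARS2 and LARS2 fell in both.

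In CdCl cells, 14 of 18 cytosolic genes were higher at 48 h than at 12 h and 1, TARS3, was lower, with a median change of 0.69. Of 15 mitochondrial genes 5 were higher (FARS2, HARS2, NARS2, PARS2 and VARS2) and 4 lower (CARS2, LARS2, WARS2 and YARS2), with a median of -0.11. Among all genes tested 34.7% were called higher and 27.6% lower (62.3% in either direction), with a median of 0.0511. Separation of the arrays was complete upwards for 15 cytosolic and 5 mitochondrial genes (38.0% of all genes tested) and downwards for 2 and 5 (30.0%). The call on TARS3, a threonine enzyme of the cytosol, was a change of -0.43 ± 0.15, which was -0.22 without CdCl replicate 2 of 48 h (adjusted p = 0.058) and was not called without CdCl replicate 1 or 2 of 12 h either (adjusted p of 0.0576 and 0.0761). The calls on TARS1 (0.22 ± 0.07), HARS2 (0.38 ± 0.12) and YARS2 (-0.29 ± 0.10) were each lost without 1 of certain CdCl arrays, namely replicate 1 of either time for TARS1, replicate 3 of 12 h or 1 of 48 h for HARS2, and replicate 2 or 3 of 12 h for YARS2 (adjusted p of 0.0641 to 0.0881).

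AARS1 read 10.15, 10.40 and 10.01 in CdCl cells at 48 h and 8.17, 8.24 and 7.99 at 12 h, a 4.15-fold rise. WARS1 read 11.44, 11.48 and 11.37 at 48 h and 9.38, 9.42 and 9.47 at 12 h, and SARS1 11.90, 11.88 and 11.73 against 10.40, 10.46 and 10.51. The order of these genes and the size of their changes (2.05 ± 0.11, 2.01 ± 0.08 and 1.38 ± 0.07) can be set beside the control values above, which come from other arrays. At 48 h the CdCl and control arrays of WARS1 overlapped (0.08 ± 0.08, adjusted p = 0.401), as did those of SARS1 (-0.07 ± 0.07, adjusted p = 0.407). EPRS1 read 11.09, 11.00 and 11.06 in CdCl cells at 12 h and 11.03, 11.00 and 11.05 in control cells, so its groups overlapped early and separated late.

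**Figure D4:**
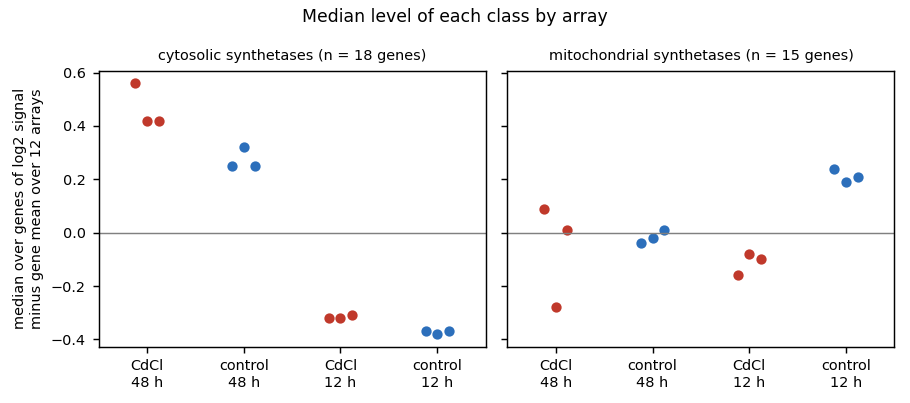
Median over the 18 cytosolic and over the 15 mitochondrial genes of log2 signal minus each gene's mean over the 12 arrays, for each array of the 4 groups. Cytosolic medians lie between 0.25 and 0.56 at 48 h and between -0.38 and -0.31 at 12 h. Mitochondrial medians at 12 h are -0.16 to -0.08 with CdCl and 0.19 to 0.24 in control cells, and 1 CdCl array at 48 h sits apart at -0.28.

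Summarised by array, the cytosolic median relative to each gene's own mean was 0.56, 0.42 and 0.42 in CdCl cells and 0.25, 0.32 and 0.25 in control cells at 48 h. At 12 h it was -0.32, -0.32 and -0.31 in CdCl cells and -0.37, -0.38 and -0.37 in control cells. The cytosolic medians thus lay farther apart between times than between CdCl and control. The mitochondrial median was 0.09, -0.28 and 0.01 in CdCl cells and -0.04, -0.02 and 0.01 in control cells at 48 h, which overlapped, and -0.16, -0.08 and -0.10 against 0.24, 0.19 and 0.21 at 12 h, which did not.

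The promoters of the family were searched for the C/EBP-ATF response element, the site through which ATF4 and its partners act at amino acid response genes. The letters searched were TGATGNAAN on both strands, in RefSeq windows of GRCh38.p14 from 250 bases before to 50 bases after each gene start. At least 1 window was found for 30 of the 36 genes. A gene with several starts counts as a match if any of its windows holds the letters. The letters occurred in 7 of 16 cytosolic genes with a window (43.8%), namely AARS1, CARS1, GARS1, IARS1, MARS1, NARS1 and TARS1, and in 1 of 14 mitochondrial genes (7.14%), YARS2. They occurred in 4.45% of all 27305 symbols with a window and in 2.78% of 8864 genes tested here. A match describes the letters only. The stretches below show where they lie, in the direction of each gene, with the match in capitals and up to 25 bases on each side. They end at most 25 bases past the start of the gene used for that window.
AARS1, chr16:70289661-70289719, minus strand: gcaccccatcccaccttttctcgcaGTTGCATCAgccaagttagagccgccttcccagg
CARS1, chr11:3057399-3057451, minus strand: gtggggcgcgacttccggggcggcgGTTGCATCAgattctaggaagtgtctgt
GARS1, chr7:30594819-30594877, plus strand: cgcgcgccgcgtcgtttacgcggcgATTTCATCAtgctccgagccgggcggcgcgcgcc
IARS1, chr9:92293678-92293736, minus strand: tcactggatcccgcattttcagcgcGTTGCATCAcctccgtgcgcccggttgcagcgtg
MARS1, chr12:57488038-57488092, plus strand: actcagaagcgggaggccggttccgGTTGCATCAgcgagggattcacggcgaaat
NARS1, chr18:57621812-57621847, minus strand: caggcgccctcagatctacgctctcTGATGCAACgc
TARS1, chr5:33440941-33440989, plus strand: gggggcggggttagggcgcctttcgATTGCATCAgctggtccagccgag
YARS2, chr12:32756061-32756119, minus strand: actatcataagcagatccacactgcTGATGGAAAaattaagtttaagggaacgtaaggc

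Read along the motif, AARS1, CARS1, IARS1, MARS1 and NARS1 share the letters TGATGCAAC, TARS1 has TGATGCAAT and GARS1 has TGATGAAAT. Positions are counted from the start of the window that holds the match, with its first base as 1 and the base before it as -1. The match begins at -34 in GARS1, -14 in IARS1, -5 in MARS1, -3 in CARS1, 2 in TARS1 and 15 in NARS1, and at -188 in AARS1. CARS1, GARS1 and TARS1 each had another window, at another start, without a match. In GARS1 and TARS1 that other start lies upstream, so counted from it the match lies inside the gene. The 6 of these genes that were measured, MARS1 being the exception, were all called higher in control cells at 48 h than at 12 h, with changes of 0.47 (TARS1) to 2.20 (AARS1). So were 12 of all 18 cytosolic genes and 23.4% of all genes tested. At 12 h of CdCl 3 of the 6 were called higher, CARS1, GARS1 and IARS1, beside 6 of all 18 cytosolic genes and 16.7% of all genes tested. YARS2, the mitochondrial gene with a match, was called lower in both comparisons (-0.49 and -0.30). A link between the letters and these changes was not tested. WARS1 and SARS1, which rose by 2.37 and 1.78 with time in control cells, had no match in their windows, and YARS1 was among the 6 genes without a window.

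HARS1 and HARS2 lie head to head on chromosome 5, with starts 85 bases apart, so their promoter windows overlap by 184 bases. The 84 bases between the starts, chr5:140691371-140691454 of GRCh38.p14 on the plus strand, are shown because the genes on either side had different calls.
HARS1 to HARS2: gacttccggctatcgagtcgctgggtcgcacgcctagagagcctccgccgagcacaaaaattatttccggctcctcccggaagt
HARS1, the cytosolic enzyme, changed by -0.07 ± 0.09 with CdCl at 12 h and did not pass (adjusted p = 0.581), while HARS2, the mitochondrial enzyme, changed by -0.51 ± 0.12 and was called lower. From 12 h to 48 h in control cells HARS1 changed by -0.42 ± 0.09 (limma adjusted p = 0.00237) and HARS2 by -0.08 ± 0.12 (adjusted p = 0.598). The differences between the genes were not tested.

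By structure, the catalytic domains of synthetases fall into class I and class II. EPRS1, which joins glutamyl and prolyl activity, was counted with class I only. It is the class I gene lower at 48 h and is among those higher with time in control cells. With CdCl at 12 h, 4 of 8 measured cytosolic class I genes were higher and 1 lower, and 2 of 10 class II genes were higher and 0 lower in limma (0 at an unadjusted p under 0.05). Over all genes tested 16.7% were higher and 39.7% lower, and the class II share of higher calls lies near the first of these. At 48 h the counts were 1 higher and 1 lower for class I and 3 and 2 for class II, beside 26.5% higher and 28.0% lower over all genes. With time in control cells 6 of 8 class I genes were higher and 2 lower, and 6 of 10 class II genes were higher and 1 lower, beside 23.4% and 33.5%.

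Several cytosolic synthetases are held in the multi-synthetase complex with the scaffold proteins AIMP1, AIMP2 and EEF1E1. Of its 7 synthetases 5 were measured, EPRS1, IARS1, KARS1, LARS1 and RARS1, and with CdCl 1 was higher and 0 lower in limma at 12 h (IARS1, with 0 lower at an unadjusted p under 0.05) and 1 higher (KARS1) and 1 lower (EPRS1) at 48 h. Their changes ran from -0.08 to 0.26 at 12 h and from -0.40 to 0.19 at 48 h. The share called higher, 1 of 5 at each time, lies near the 16.7% and 26.5% of all genes tested at 12 h and 48 h. The only scaffold gene with a measured probe set, AIMP1, changed by -0.08 ± 0.06 at 12 h and by 0.17 ± 0.06 at 48 h (limma adjusted p = 0.0324).

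Mitochondria make glutaminyl-tRNA indirectly, since EARS2 loads glutamate and the amidotransferase encoded by QRSL1, GATB and GATC converts it. EARS2 did not pass at either time (0.09 ± 0.11 at 12 h and 0.22 ± 0.11 at 48 h), though with its probe sets averaged it passed at 48 h (0.28, adjusted p = 0.00973). QRSL1 read 7.72, 7.84 and 7.70 in CdCl cells at 12 h and 8.27, 8.27 and 8.10 in control cells, and it was lower at 12 h (-0.46 ± 0.08) and at 48 h (-0.60 ± 0.08). GATC read 7.70, 7.70 and 7.66 in CdCl cells at 12 h against 8.15, 8.29 and 8.15 in control cells, and was lower at that time (-0.51 ± 0.07), while GATB was higher at 48 h (0.33 ± 0.09).

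Of 8 measured mitochondrial translation factors, which use the charged tRNAs, 0 were higher and 5 lower with CdCl at 12 h in limma, with a median of -0.42, and 2 were higher and 0 lower at 48 h. At an unadjusted p under 0.05 the counts of 0 were also 0. Called lower at 12 h were thus 62.5%, beside 39.7% of all genes tested and an all-gene median of -0.16, and the 2 of 8 called higher at 48 h stand beside 26.5% of all genes, and the 0 lower beside 28.0%. MTFMT, which formylates the initiator tRNA, read 5.69, 5.69 and 5.47 in CdCl cells at 12 h and 6.45, 6.35 and 6.28 in control cells, a fall without overlap (-0.74 ± 0.11). The initiation factor gene MTIF2 changed by -0.68 ± 0.09, and the elongation factor genes TSFM and TUFM by -0.62 ± 0.09 and -0.37 ± 0.07. At 48 h TUFM was higher (0.26 ± 0.07). Among 3 cytosolic elongation factor genes with a value, EIF5A was higher at both times (0.82 ± 0.08 at 12 h, 0.72 ± 0.08 at 48 h) and EEF2 lower at both (-0.48 ± 0.06 and -0.47 ± 0.06).

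Before charging, tRNAs are trimmed, modified and exported. Of 9 measured genes of tRNA maturation and export, 1 was higher and 4 lower with CdCl at 12 h, and 3 higher and 2 lower at 48 h. These shares, 11.1% and 44.4% at 12 h and 33.3% and 22.2% at 48 h, lie near those of all genes tested (16.7% and 39.7%, and 26.5% and 28.0%). XPOT, the tRNA exporter, read 11.21, 11.22 and 11.31 in CdCl cells at 12 h and 10.98, 11.00 and 10.72 in control cells (0.34 ± 0.11, limma adjusted p = 0.0176). In control cells it was higher at 48 h than at 12 h by 1.41 ± 0.11, and it was the only gene of the list called higher at 12 h of CdCl. ELAC2, which trims the tRNA tail, was lower at 12 h (-0.66 ± 0.08) and at 48 h (-0.28 ± 0.08).

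The list of eIF2alpha kinases and ATF4 pathway genes had 14 of 23 higher and 6 lower with CdCl at 12 h (median 0.90) and 9 higher and 9 lower at 48 h (median -0.04). In control cells at 48 h against 12 h, 18 were higher and 1 lower (median 1.61), and the interaction was higher for 1 and lower for 19. Called higher and lower at 12 h were 60.9% and 26.1% of the list, beside 16.7% and 39.7% of all genes tested, and at 48 h 39.1% each, beside 26.5% and 28.0%. With time in control cells the shares were 78.3% and 4.35%, beside 23.4% and 33.5%, and for the interaction 4.35% and 82.6%, beside 27.0% and 13.0%. ATF4 itself read 11.77, 11.67 and 11.75 in CdCl cells at 12 h and 11.42, 11.28 and 11.40 in control cells, higher without overlap (0.36 ± 0.06). At 48 h it read 12.72, 12.61 and 12.67 in CdCl cells and 13.09, 13.03 and 13.04 in control cells, lower without overlap (-0.39 ± 0.06). DDIT3, the stress factor CHOP, read 11.38, 11.51 and 11.60 in CdCl cells at 12 h and 7.51, 7.53 and 7.40 in control cells, and at 48 h 12.89, 13.02 and 12.89 in CdCl cells and 12.66, 12.78 and 12.76 in control cells. The control cells of 48 h were thus above both groups of 12 h. ASNS, the asparagine synthetase and a standard ATF4 target, was higher with CdCl at 12 h (0.77 ± 0.08), lower at 48 h (-0.48 ± 0.08) and higher by 2.96 ± 0.08 with time in control cells. The eIF2alpha phosphatase subunit gene PPP1R15A was higher with CdCl at both times (3.63 ± 0.08 and 2.87 ± 0.08). Lower with CdCl at 12 h were ATF5 (-0.77), EIF2AK4 (-0.74), EIF2AK1 (-0.46), PHGDH (-0.33), PSAT1 (-0.25) and DDIT4 (-0.22). The arrays of ATF4 at 12 h and 48 h are the same as those behind the synthetase values, so the comparisons share controls and are set side by side only.

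**Figure D5:**
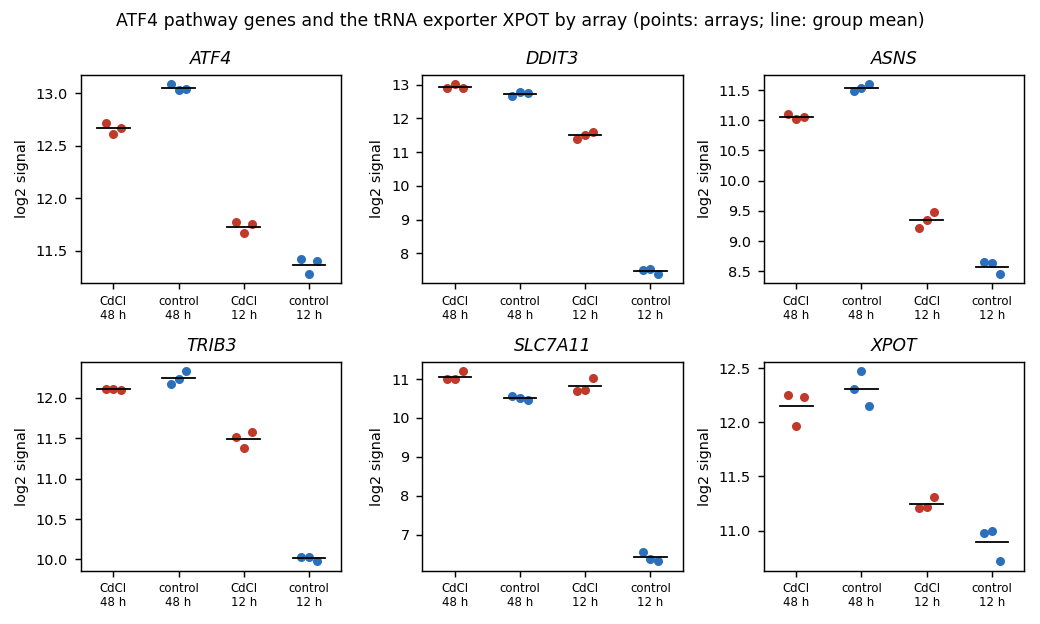
Log2 signal on each array for ATF4, DDIT3, ASNS, TRIB3, SLC7A11 and XPOT, with points for arrays and a line for the mean of 3, in CdCl and control cells at 48 h and at 12 h. Control arrays at 48 h lie above control arrays at 12 h for all 6 genes, and ATF4 and ASNS are higher with CdCl at 12 h and lower at 48 h.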

How the data were processed

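RNA of 12 cultures, 3 per group, was measured on Affymetrix arrays. Each deposited log2 value is the signal of a probe set, which the authors made with GCRMA per the submitters' processing notes, in a version not given in the sources used here. The method equalises arrays, so a shift of all transcripts cannot be seen, and precision is limited by how few arrays there are. Of 54675 probe sets, 41091 carried 1 symbol, 1801 several and 11783 none; symbols were updated through gene IDs with RefSeq. Genes were tested if above 4 on at least 3 arrays. One fit in limma 3.58.1 (R 4.3.3) of the 4 group means gave 5 two-sided comparisons, adjusted by Benjamini-Hochberg over 10683 genes at 0.05. The smallest p of an exact permutation of 3 against 3 arrays is 0.1. Members and lists were chosen with earlier results of these data known. Values by array are given for the 6 largest changes past the threshold at each time, the 4 largest interactions, the 3 largest control changes, the 2 largest mitochondrial changes in each direction, GARS1, KARS1 and EPRS1, and up to 4 genes per other list. Same-numbered replicates did not vary together (correlations -0.34 to -0.00), so no pairing was used. Differently numbered replicates correlated at -0.16 to 0.31, and a pairing under other numbers was not tested. Simulated data for the 12 h comparison held 10683 genes, with 50 changed at each size. Changes of 0.5, 1 and 2 were recovered in 50%, 92% and 100% of those, with 6 false calls. In the real 12 h comparison 56.4% of genes were called, so the adjustment differs and these rates need not hold there. Alternatives covered scaling, filter, prior, probe set, arrays fitted, replicate block and each array left out.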

Additional observations from a re-analysis of the deposited data

Results flagged for a closer look

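The difference between the CdCl effects at 48 h and at 12 h, tested as the interaction, passed for 13 of the 33 genes measured. The effect was higher at 48 h for 21.2% of the 33 and lower for 18.2%. Among all genes tested the shares were 27.0% and 13.0%, or 40.1% in either direction. The number of genes that passed thus lies near the share of all genes. The effect was higher at 48 h for VARS1 (1.75), FARS2 (1.30), AARS2 (0.80), VARS2 (0.78), FARSA (0.57), HARS2 (0.46) and NARS2 (0.37). It was lower at 48 h for GARS1 (-0.64), CARS1 (-0.46), EPRS1 (-0.43), SARS1 (-0.40), WARS1 (-0.36) and YARS1 (-0.30). On the other VARS1 probe set the CdCl effect was 0.40 at 48 h and 0.03 at 12 h, untested. On the other measurable FARS2 probe set it was 0.20 and -0.44, and on the other AARS2 probe set 0.17 and -0.05, also untested.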

How the results depend on the processing

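The main counts below are those of the report. At 12 h, cytosolic genes lower numbered 2 with all probe sets of a gene averaged, and with arrays centred on the genes tested (an alternative chosen after seeing the data) mitochondrial genes numbered 2 higher and 5 lower. At 48 h, cytosolic genes lower numbered 1 with that centring, with the probe set of largest SD and with only the 6 arrays of that time. For the interaction, cytosolic genes higher numbered 4 with no filter, a trended prior or averaged probe sets, mitochondrial genes higher 3 with that centring, and mitochondrial genes lower 1 with quantile normalisation, a filter at 5, a trended prior or the probe set of largest SD, and 2 with that centring. For control cells at 48 h against 12 h, mitochondrial genes higher numbered 1 with quantile normalisation, no filter, a trended prior, the probe set of largest SD or the replicate block. For CdCl cells at 48 h against 12 h, cytosolic genes lower numbered 2 with either centring or a trended prior, and 0 with no filter or averaged probe sets. Numbers did not pair the samples, and apart from that control count of 1, the replicate block moved no count of calls by over 1.5 times. Under it the calls on TARS1 at 48 h (-0.19, adjusted p = 0.0639), the HARS2 interaction (0.46, 0.0594) and PARS2 over time in control cells (0.32, 0.0639) were lost, and RARS2 over time in CdCl cells was gained (-0.19, 0.0307). The single reversal was LARS1, whose interaction was -1.33 (adjusted p = 0.0112) on the probe set of largest SD and 0.19 on the one used; the cause was not tested. Leaving out each array in turn, the counts for cytosolic higher and lower and mitochondrial higher and lower were 6 to 7, 1, 1 and 6 to 8 at 12 h, 3 to 6, 1 to 3, 4 to 5 and 2 to 3 at 48 h, 2 to 3, 4 to 6, 4 to 5 and 0 to 1 for the interaction, 12, 2 to 3, 0 to 2 and 5 to 7 for control cells over time, and 13 to 14, 0 to 2, 4 to 5 and 3 to 5 for CdCl cells over time. Limits were set by 3 arrays per group and by signal over background for dim genes such as MARS2 and SARS2.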

Other observations

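Dimmer probe sets of some cytosolic genes changed more at 12 h of CdCl than those used above. They entered the limma fit with the probe set of largest SD, where the changes of CARS1 (adjusted p = 5.32e-05), SARS1 (0.000131), LARS1 (0.000265) and EPRS1 (0.00251) passed. A choice by SD over the same 12 arrays favours large changes, and the adjusted p does not allow for it. A CARS1 probe set had group means of 6.36 in CdCl and 4.31 in control cells, a change of 2.05 beside 0.47 on the probe set used. For SARS1 the means were 7.05 and 5.48 (1.57 beside 0.33), for LARS1 6.00 and 4.44 (1.56 beside 0.00) and for EPRS1 8.61 and 7.69 (0.92 beside 0.02). At 48 h the same probe sets changed by 0.39, -0.17, 0.23 and -0.37 (limma adjusted p of 0.154 to 0.555). At 12 h the remaining probe sets that passed the filter changed by 0.42 for CARS1, by 0.14 and 0.13 for LARS1 and by -0.28 for EPRS1.

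The isoforms these probe sets read were not determined here. For SARS1 the dimmer probe set changed by 0.19 between 48 h and 12 h in CdCl cells, beside 1.38 on the one used, and by 1.93 in control cells, beside 1.78.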
